A study of Rattus norvegicus with 12 samples.

Results

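The superficial zone (SZ) of articular cartilage was compared with the intermediate/deep zone (IDZ) beneath it, in the proximal tibial epiphysis of Sprague-Dawley rats 10 days after birth. The comparison used the 4 SZ and 4 IDZ arrays among 12 Affymetrix Rat Gene ST arrays, and all 14300 genes for which a transcript cluster carried 1 gene symbol, each by its brightest cluster. The 4 arrays of the resting zone (RZ) of the growth plate are given for context. No group differed in genotype or treatment by the labels. Each SZ sample held both proximal tibias of 1 animal, from animals 5 to 8, and each IDZ or RZ sample pooled 2 of the 8 animals, so IDZ replicates 1 and 2 came from animals 1 to 4 and IDZ replicates 3 and 4 from the animals that also gave SZ. The zones were cut by hand from eosin-stained sections, with a layer beneath SZ discarded, and the intermediate and deep zones were combined.

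Articular cartilage covers the ends of long bones and carries load with little friction. Its superficial zone holds flattened cells that lie along the surface, secrete lubricin and face the synovial fluid, and at this age the tissue is still growing. Deeper chondrocytes are rounder, rely largely on glycolysis, and produce most of the aggrecan, collagen II and other matrix that gives the tissue its stiffness. Which genes part these layers bears on how a joint surface is kept apart from the growing cartilage below it.

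Levels are log2 signals, and a difference is the mean of the 4 SZ arrays minus that of the 4 IDZ arrays, or the reverse where a gene was higher in IDZ. The genes that guided the dissection were measured as follows. Prg4, which encodes lubricin, read 12.53, 12.90, 12.97 and 12.72 on SZ replicates 1 to 4, 10.61, 10.80, 10.95 and 8.86 on IDZ replicates 1 to 4, and 5.24 to 6.40 in RZ. Every IDZ array lay above the RZ arrays, replicate 4 was well below the other IDZ arrays, and SZ and IDZ did not overlap (difference 2.47, standard error 0.36, adjusted p = 0.00013). Col10a1, the collagen of hypertrophic cartilage, read 7.27, 6.67, 6.67 and 7.36 in SZ, 8.10, 7.71, 7.54 and 7.89 in IDZ and 7.79 to 8.77 in RZ, and was higher in IDZ by 0.82 (standard error 0.21, adjusted p = 0.012).

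One SZ array stood apart. SZ replicate 4 had an interquartile range of 2.24 over all clusters, against 2.72 to 2.91 for the other SZ arrays, a mean distance of 78.6 to the other SZ arrays against 50.8 to 55.8, and a quality weight of 0.12 where 1 is usual. The standard deviation over 4 arrays had a median of 0.232 in SZ and 0.113 in IDZ, and was larger in SZ for 83.7% of genes. Without replicate 4 the SZ median was 0.127. The array was kept. List counts that reached at least 3 genes and moved by over 1.5 times without it are given both ways, and several counts of 0 to 2 genes also moved when single arrays were left out.

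At an adjusted p under 0.05 and at least 2-fold, 653 genes (4.57% of all) read higher in SZ and 145 (1.01%) read higher in IDZ. The asymmetry grew with the size of the difference, with 152 genes over 4-fold in SZ and 19 in IDZ, and 26 over 8-fold in SZ and 1 in IDZ. With no minimum fold, 2430 genes (17.0%) read higher in SZ and 1367 (9.56%) in IDZ, together 26.6% of all, and without SZ replicate 4 these were 3713 (26.0%) and 2721 (19.0%). For 3620 genes (25.3%) the 4 SZ arrays did not overlap the 4 IDZ arrays, and the median difference over all genes was -0.03. Lists of genes are counted below by that adjusted p at any fold, to be read against 17.0% and 9.56%, and counts without SZ replicate 4 against 26.0% and 19.0%.

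**Figure D1:**
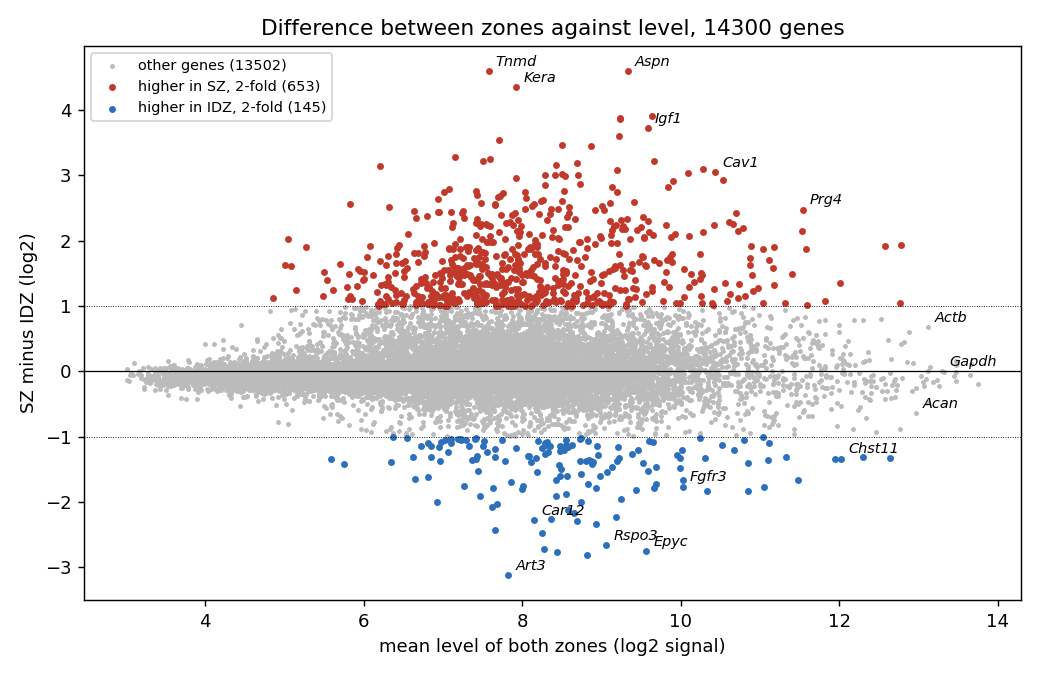
Difference between zones (y axis, SZ minus IDZ on the log2 scale) against the mean level of both zones (x axis, log2 signal) for 14300 genes, with the 653 genes at least 2-fold higher in SZ in red, the 145 higher in IDZ in blue and dotted lines at 2-fold. The red points reach 4.60 (Tnmd and Aspn), the blue ones -3.12 (Art3), and Gapdh lies at 0.01.

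Tenomodulin (Tnmd), a membrane protein of tendon, read 10.36, 9.77, 9.99 and 9.38 in SZ, 5.28, 5.28, 5.29 and 5.26 in IDZ and 4.78 to 5.08 in RZ. Every SZ array lay more than 4 log2 units above every IDZ array, a 24.2-fold difference in the means (difference 4.60, standard error 0.16, adjusted p = 2.5e-10). Its relative chondromodulin (Cnmd), a vessel inhibitor of cartilage, ran the other way. Its SZ arrays lay at or below 12.53 and its IDZ arrays at or above 13.15, and it was higher in IDZ by 0.89 (standard error 0.10, adjusted p = 1.6e-05). The insulin-like growth factor Igf1 read 11.68, 11.36, 11.62 and 11.12 in SZ against 8.20, 8.26, 7.31 and 7.12 in IDZ (difference 3.72). The caveolin gene Cav1 read 11.87 to 12.03 in SZ and 8.45 to 9.16 in IDZ (difference 3.05). Other large differences toward SZ were those of the selenium carrier Selenop (3.20), the basement membrane protein Tinagl1 (3.16) and Lgi1 (3.14), a secreted protein known from synapses.

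Art3, an ADP-ribosyltransferase, differed most toward IDZ. It read 6.29, 6.02, 6.55 and 6.18 in SZ, 9.44, 9.34, 9.34 and 9.41 in IDZ and 9.06 to 9.14 in RZ, an 8.71-fold difference (3.12, standard error 0.10, adjusted p = 2.5e-10). The fibulin gene Efemp1 read 6.95 to 7.23 in SZ and 9.71 to 9.96 in IDZ (2.77 higher in IDZ). Fam151a, a gene of little known function, read 6.31 to 6.64 in SZ and 8.73 to 8.94 in IDZ, but only 6.93 to 7.37 in RZ, so that among the 3 zones its high level belonged to IDZ. For Bmp3 the order was different, with 6.95 to 7.94 in SZ, 9.71 to 10.10 in IDZ and 11.14 to 11.35 in RZ. Of the 145 genes at least 2-fold higher in IDZ, 65 had an RZ mean above both articular zones and 76 between them. Of the 653 higher in SZ, 404 had an RZ mean below both and 245 between them.

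**Figure D2:**
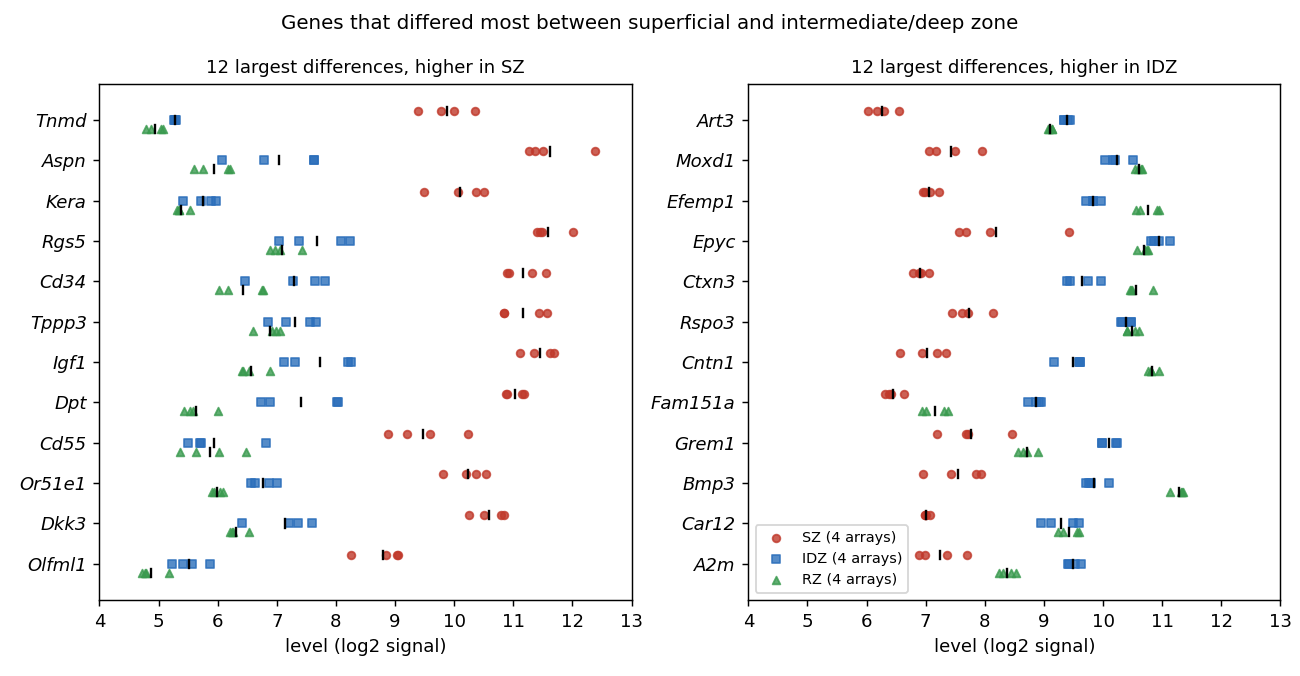
Levels (x axis, log2 signal) on each of 4 SZ, 4 IDZ and 4 RZ arrays for the 12 genes with the largest difference toward SZ (left) and toward IDZ (right), with black ticks at zone means. SZ and IDZ arrays do not overlap for any gene shown, and the IDZ arrays of Aspn, Igf1, Rgs5 and Dpt are spread more widely than those of Tnmd.

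The IDZ arrays differed among themselves in several of the genes that were highest in SZ. Asporin (Aspn), a proteoglycan on collagen fibrils, read 7.63, 7.63, 6.79 and 6.08 on IDZ replicates 1 to 4, and Rgs5, a pericyte marker, 8.24, 8.09, 7.37 and 7.04. For 17 of the 20 genes with the largest difference toward SZ, both IDZ arrays of animals 1 to 4 lay above both of animals 5 to 8, against 15.9% of all genes, and the reverse split was seen in 1 of the 20 against 20.9% of all genes. The median gap over these 20 genes was 0.54. They were picked with these same IDZ values and read on the same arrays, so they are not 20 separate observations of the animals. Among the 653 genes the shares were 24.5% and, for the reverse split, 17.6%, and among the 20 genes with the largest difference toward IDZ the counts were 3 and 6. Fam111a, a replication-associated protease, split with animals 1 to 4 above (7.95, 7.82, 6.25 and 6.13), as did the limb factor Tbx5 (8.26, 8.50, 6.68 and 6.97). Both, like Aspn, were among the 8 genes picked for the largest spread in IDZ. Of the others so picked, Ahsp and Alas2 split the reverse way, and Prg4, Mmp13 and Mmp9 split neither way. Neither Fam111a nor Tbx5 differed between SZ and IDZ at the threshold (adjusted p = 0.77 and 0.09). Tbx5 did, toward IDZ, without IDZ replicate 3 or 4.

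The small leucine-rich proteoglycans bind collagen fibrils and set their spacing, and several lie side by side in the genome. In the RefSeq annotation of GRCr8, Dcn, Lum, Kera and Epyc adjoin on chromosome 7, and Ogn, Omd and Aspn on chromosome 17. Of 12 measured family members, 5 read higher in SZ and 2 in IDZ, and direct neighbours differed in direction. Keratocan (Kera) read 10.37, 10.06, 10.50 and 9.49 in SZ and 5.96, 5.90, 5.72 and 5.41 in IDZ (difference 4.36, standard error 0.18, adjusted p = 2e-09). Epiphycan (Epyc), the next gene along, read 7.56, 8.09, 9.42 and 7.68 in SZ and 10.86, 10.95, 10.82 and 11.13 in IDZ, and was higher in IDZ by 2.75 (standard error 0.29, adjusted p = 4.7e-06), with SZ replicate 3 far above the other SZ arrays.

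On chromosome 17 the same contrast stood between Aspn and Omd. Aspn read 12.39, 11.50, 11.36 and 11.26 in SZ, 6.08 to 7.63 in IDZ (difference 4.60, standard error 0.31). Osteomodulin (Omd) read 10.96, 9.51, 10.63 and 10.61 in SZ and 11.65, 11.59, 11.94 and 11.95 in IDZ, and was higher in IDZ by 1.35 (standard error 0.22, adjusted p = 0.00038). Between these extremes lumican (Lum) was higher in SZ by 1.57 and Ogn by 0.39, the latter not past the threshold without SZ replicate 1 or IDZ replicate 1 or 2. Decorin (Dcn), biglycan (Bgn) and fibromodulin (Fmod) differed by -0.16, 0.10 and 0.06 with adjusted p of 0.35, 0.42 and 0.63. Prelp was higher in SZ than IDZ by 1.32, but its RZ arrays, at 12.09 to 12.44, lay above both.

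The 120 bases before the annotated start of each member of both pairs are shown, since the neighbours differ in direction, from RefSeq on GRCr8, 5′ to 3′ on the gene's strand. Both strands were searched for the TATA box (TATAAA), the CCAAT box (CCAAT), the GC box (GGGCGG), an AP-1 site (TGANTCA), a TEAD site (CATTCC), a RUNX site (TGTGGT), a SOX site (ACAAAG) and the CArG box. Capitals mark a match, which was a CCAAT box in Kera and a RUNX site in Epyc, and no match fell in the stretches of Aspn and Omd.
Kera, higher in SZ, chr7:34283980-34284099, plus strand: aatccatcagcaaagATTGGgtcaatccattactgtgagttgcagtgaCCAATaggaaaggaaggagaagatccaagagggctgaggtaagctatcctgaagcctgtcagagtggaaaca
Epyc, higher in IDZ, chr7:34323212-34323331, plus strand: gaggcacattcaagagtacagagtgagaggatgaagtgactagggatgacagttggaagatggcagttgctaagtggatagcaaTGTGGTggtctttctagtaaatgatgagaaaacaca
Aspn, higher in SZ, chr17:15310470-15310589, minus strand: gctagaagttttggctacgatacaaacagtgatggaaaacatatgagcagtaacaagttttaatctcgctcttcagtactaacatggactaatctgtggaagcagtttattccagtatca
Omd, higher in IDZ, chr17:15274871-15274990, minus strand: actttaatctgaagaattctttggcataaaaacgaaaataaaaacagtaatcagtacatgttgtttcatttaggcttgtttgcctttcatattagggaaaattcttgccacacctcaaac
A CCAAT box was present in the 300-base window (250 before and 50 after the start) of 38.3% of the genes compared that have a window, and a RUNX site in 13.9%. Among genes at least 2-fold higher in SZ these shares were 32.6 and 12.3%, and among those higher in IDZ 29.6 and 10.2%, for the 479 and 108 genes with a window. A GC box (GGGCGG) was in 57.4% of windows of the former, 55.6% of the latter and 49.9% of the genes compared.

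**Figure D3:**
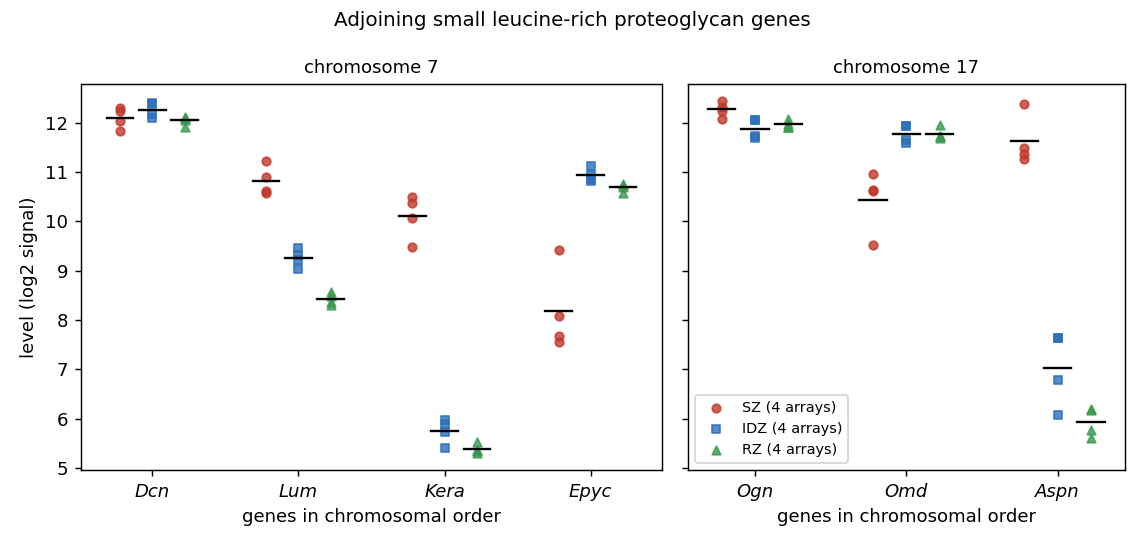
Levels (y axis, log2 signal) of adjoining small leucine-rich proteoglycan genes in chromosomal order (x axis) on 4 SZ, 4 IDZ and 4 RZ arrays, with bars at zone means. Kera and Aspn lie high in SZ and low in IDZ, while Epyc and Omd, their neighbours, lie lower in SZ than in IDZ.

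Genes of other cell types differed between the zones, although soft tissue had been trimmed from the epiphyses. In tissue samples such as these, fewer cells of a type and less RNA per cell cannot be told apart. Of 17 measured endothelial genes 16 read higher in SZ, among them the junction gene Cdh5 (2.31), and the mean of the list lay at 8.44 to 8.94 on SZ arrays and 6.43 to 6.84 on IDZ arrays. Of 25 macrophage and myeloid genes 24 read higher in SZ, among them Csf1r (2.43) and Cd68 (1.60), with a list mean of 8.17 over the SZ arrays (lowest 7.80) and 6.56 over the IDZ arrays. Of 13 mural cell genes 10 read higher in SZ and 1 in IDZ, with Rgs5 at 3.90 and Myh11 at 0.73 and list means of 8.40 to 8.82 and 6.99 to 7.24. Of 10 tendon and ligament genes 8 read higher in SZ (means 9.92 to 10.27 and 7.84 to 8.09). Tnmd and Kera, described above, are counted among the tendon and ligament genes, and Rgs5 among the mural cell genes. The part of other cell types in the differences described above and below was not tested.

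Fat, bone-resorbing and blood cell genes were measured as well. Of 14 adipocyte genes 9 read higher in SZ, with adiponectin (Adipoq) at 6.49, 8.32, 8.30 and 7.47 in SZ and 5.83 to 5.93 in IDZ. Of 4 osteoclast genes 3 read higher in SZ, with Ctsk at 2.21. Of 16 lymphocyte genes 2 read higher in SZ, namely Cd4 (2.65), which rat macrophages also carry, and Il7r (0.42, a call lost without SZ replicate 1 or 3 or IDZ replicate 1 or 3). The T cell gene Cd3e read 5.37 to 6.02 in SZ and 5.26 to 5.62 in IDZ. None of 9 erythroid genes passed, and their mean ranged over 7.52 to 9.19 on SZ arrays, lowest on replicate 4, and 7.77 to 8.76 on IDZ arrays. Skeletal muscle (1 of 21 higher in SZ, 2 in IDZ), keratinocyte (0 and 1 of 8), osteoblast (2 and 2 of 10), granulocyte and mast cell (1 and 1 of 16) and Schwann cell and neuron genes (2 and 2 of 16) gave a few genes each. Without SZ replicate 4 the counts higher in IDZ were 3 lymphocyte, 4 muscle, 3 keratinocyte and 6 Schwann cell genes, beside 19.0% of all genes, and 2 erythroid genes were higher in SZ, as were 2 muscle genes (3 without SZ replicate 3). Defining genes did not pass for muscle (Acta1 at 0.595, past the threshold only without SZ replicate 3, and Ckm at 0.14) or bone (Bglap 0.17 and Dmp1 0.46). The markers Pecam1, Acta2, Krt5, Cd79a and Acp5 had no cluster with 1 symbol and were not compared, nor were Sox9, Comp and Gdf5.

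Matrix genes differed by class. Of 23 cartilage matrix genes 17 read higher in IDZ and none in SZ (median difference -0.88), while 20 of 21 fibrous matrix genes read higher in SZ (median 1.74). Aggrecan (Acan) read 12.50 to 12.82 in SZ and 13.24 to 13.35 in IDZ, higher in IDZ by 0.64 (standard error 0.09). Collagen II (Col2a1) read 13.60, 13.65, 13.70 and 13.67 in SZ and 13.91, 13.82, 13.86 and 13.78 in IDZ. These arrays did not overlap, yet the difference of 0.19 did not pass (adjusted p = 0.11). The minor collagens of the cartilage fibril were further apart, with Col9a2 higher in IDZ by 1.32 and Col11a2 by 1.01. Toward SZ the fibril collagens Col1a1, Col1a2 and Col3a1 differed by 1.93, 1.92 and 1.92, and periostin (Postn), a matrix protein of fibrous tissue, by 3.10.

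Enzymes that build this matrix leaned to IDZ. Of 32 glycosaminoglycan synthesis genes 16 read higher in IDZ and 7 in SZ. Higher in IDZ were the first enzyme of chain assembly Xylt1 (0.95), the sulfate transporter Slc26a2 (1.20), the sulfate donor synthase Papss2 (1.21) and the chondroitin 4-sulfotransferase Chst11, which read 11.12, 11.34, 11.66 and 11.28 in SZ and 12.64, 12.71, 12.70 and 12.71 in IDZ (1.34, standard error 0.11). The chondroitin 6-sulfotransferase Chst3 was higher in SZ, at 8.66, 8.82, 8.76 and 8.10 against 7.47, 7.02, 7.53 and 7.26 (1.26, standard error 0.16, adjusted p = 2.6e-05). Also higher in SZ were Chst15 (1.03) and Ust (0.90), which add a further sulfate to chondroitin or dermatan chains, and the heparan sulfate polymerase Ext1 (0.87).

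Of 24 collagen processing genes 10 read higher in IDZ and 2 in SZ, or 9 and 4 without SZ replicate 4. The 10 include all 3 measured prolyl 4-hydroxylase alpha subunits, P4ha1 (0.705), P4ha2 (0.99) and P4ha3 (1.32), and the lysyl hydroxylase Plod2 (0.69). The 2 are the crosslinking enzymes Tgm2 (1.71) and Loxl1 (1.33). The collagen chaperone Serpinh1 differed by -0.10 and Lox by 0.10, and neither passed. Of 40 ribosomal protein genes 14 read higher in IDZ and none in SZ (median -0.22), none of them 2-fold, with Rpl13 at 10.60 to 10.95 in SZ and 11.40 to 11.64 in IDZ. Ribosomal protein genes have many processed copies, so their probes may share signal. Of the folding machinery of the endoplasmic reticulum 5 of 27 genes read higher in SZ and 4 in IDZ.

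Proteases were mostly higher in SZ, 23 of 28 with their inhibitors, and 2 read higher in IDZ. The gelatinase Mmp2 read 11.94 to 12.29 in SZ and 10.18 to 10.29 in IDZ (difference 1.91, standard error 0.10). Collagenase 3 (Mmp13) varied widely in both zones, at 12.21, 11.89, 10.87 and 12.03 in SZ and 9.61, 9.64, 10.29 and 8.31 in IDZ, so its difference of 2.29 had a standard error of 0.49. Mmp9 varied in the same arrays (IDZ replicate 3 at 10.77, the others at 9.10 to 9.46). The aggrecanases Adamts4 and Adamts5 differed by 1.49 and 1.03. Toward IDZ stood the broad protease inhibitor A2m, at 6.99, 7.37, 7.70 and 6.88 in SZ and 9.40, 9.52, 9.43 and 9.63 in IDZ (2.26, standard error 0.15), and the membrane protease Mmp16 (0.85).

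Energy metabolism differed in opposite directions by pathway. Of 21 glycolysis genes 13 read higher in IDZ and 1 in SZ (median -0.53), or 14 and 3 without SZ replicate 4. Hexokinase 2 (Hk2), which commits glucose to the cell, read 7.35 to 7.92 in SZ, with a mean of 7.71 ± 0.248 (SD, n = 4), and averaged 8.95 ± 0.068 (SD, n = 4) in IDZ, with no overlap. It was higher in IDZ by 1.24 (standard error 0.11, adjusted p = 1.2e-06). Higher in IDZ at both ends of the pathway were the glucose transporter Slc2a1 (1.02) and the lactate exporter Slc16a3 (0.98), and the aldolase Aldoc had the largest difference, at 7.48 to 8.01 in SZ and 9.16 to 9.42 in IDZ. The SZ exception was the phosphofructokinase Pfkp, higher in SZ by 0.79, while its relatives Pfkl and Pfkm read higher in IDZ by 0.73 and 0.51. Gapdh read 13.25 to 13.38 and 13.27 to 13.33, a difference of 0.01 (standard error 0.08).

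Hypoxia response genes went with glycolysis, 13 of 22 higher in IDZ and 2 in SZ. Carbonic anhydrase 12 (Car12), a regulator of pH at the cell surface, read 6.99 to 7.06 on all SZ arrays and 8.95 to 9.59 in IDZ (2.28 higher in IDZ, standard error 0.13). The angiogenic factor Vegfa was higher in IDZ by 1.09 and the pyruvate dehydrogenase kinase Pdk1 by 0.74. Of the factors that drive this response, Hif1a differed by -0.11 (adjusted p = 0.47), and Epas1, which encodes HIF-2 alpha and is also abundant in endothelium, was higher in SZ by 0.85, with RZ at 7.93 to 8.54 below both.

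Mitochondrial genes leaned the other way by smaller amounts. Of 57 oxidative phosphorylation genes 17 read higher in SZ and 1 in IDZ (median 0.19), and 32 and 1 without SZ replicate 4. None of them differed 2-fold. The list mean was 9.52 to 9.56 on SZ replicates 1 to 3 but 9.08 on SZ replicate 4, below the IDZ arrays at 9.17 to 9.36. The RZ arrays, at 9.40 to 9.56, also lay above IDZ. Succinate dehydrogenase subunit Sdhc read 10.99, 11.04, 10.83 and 10.66 in SZ and 10.04, 9.99, 10.05 and 10.38 in IDZ (difference 0.76, standard error 0.11, adjusted p = 0.0001). Of 21 genes of the citric acid cycle and glutamine use 8 read higher in SZ and 1 in IDZ. The SZ count was unstable, at 14 without SZ replicate 4, beside 26.0% of all genes. It was 3 to 5 without SZ replicate 1, 2 or 3 or IDZ replicate 1, 2 or 3. In those fits 2049 to 2142 of all 14300 genes read higher in SZ. Glutamate dehydrogenase (Glud1) had a difference of 1.37 toward SZ (standard error 0.13), and the asparaginase Asrgl1 one of 1.33 toward IDZ.

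Genes of lipid synthesis and genes of lipid uptake and export leaned in opposite directions. Synthesis leaned to IDZ, with 9 of 16 cholesterol synthesis genes higher in IDZ and 1 in SZ, and 6 of 13 fatty acid synthesis genes against 1. Sqle (0.77), Lss (0.85) and Cyp51 (0.98), consecutive enzymes of the sterol pathway, were among them, as was malic enzyme Me1 (1.37), which supplies reducing power for lipid synthesis. Uptake and export leaned to SZ, with 9 of 15 genes higher in SZ and 3 in IDZ. The sterol exporter Abca1 differed by 1.43, and lipoprotein lipase (Lpl), shared with fat and macrophages, by 2.57. Lpl and another member, Fabp4, are also counted among the adipocyte genes above, and the part of other cell types was not tested. Of 31 antioxidant and metal handling genes 14 passed toward SZ and none toward IDZ, and ferroportin (Slc40a1) read 10.01 to 10.24 in SZ, 8.09 to 8.60 in IDZ and 10.52 to 10.91 in RZ.

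**Figure D4:**
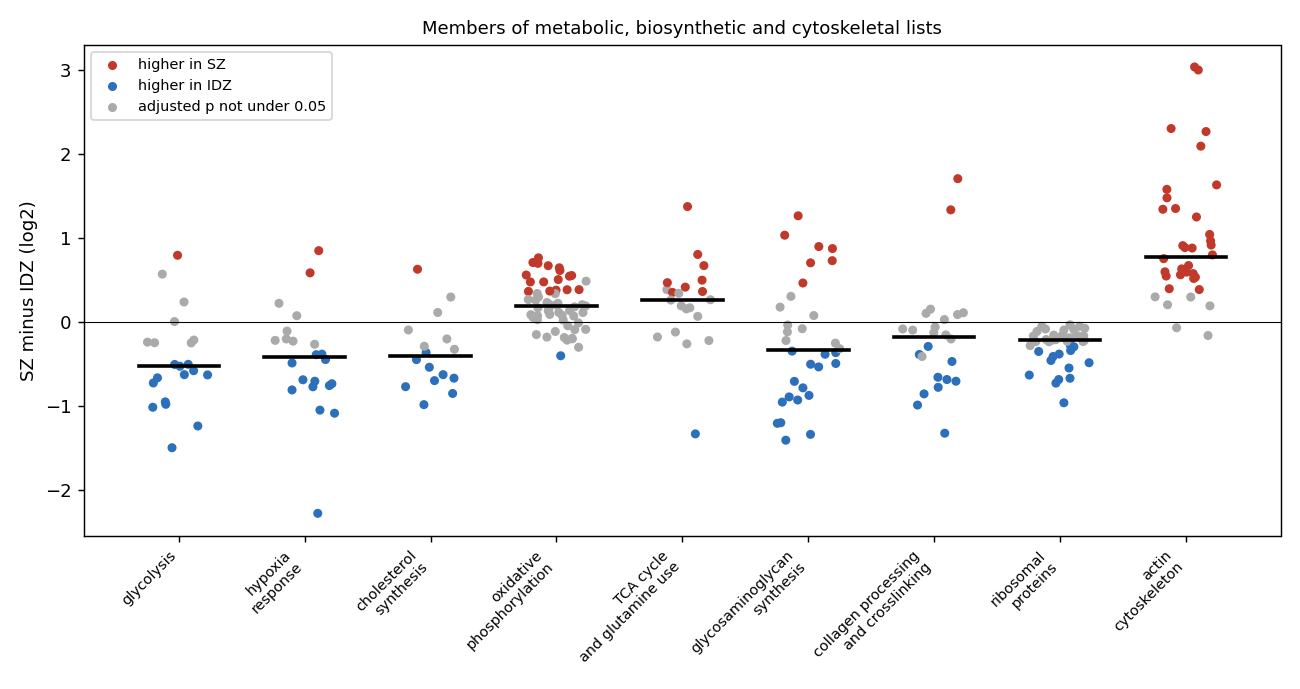
Difference between zones (y axis, SZ minus IDZ on the log2 scale) of each measured member of 9 gene lists (x axis, points spread sideways for visibility), red where higher in SZ and blue where higher in IDZ at an adjusted p under 0.05, with black bars at list medians. Glycolysis, hypoxia and cholesterol synthesis lie mainly below 0, oxidative phosphorylation slightly above, and the actin cytoskeleton almost wholly above.

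The cytoskeleton gave one of the most one-sided groups, with 30 of 36 actin cytoskeleton genes higher in SZ and none in IDZ (median 0.78). The actin crosslinker Flna read 10.95, 10.93, 10.54 and 10.40 in SZ and 8.66, 8.66, 8.65 and 8.47 in IDZ (difference 2.09, standard error 0.12). Beta-actin (Actb) itself read 13.41 to 13.48 against 12.75 to 12.81 (0.67), and vimentin (Vim) differed by 1.04. The largest differences were those of transgelin 2 (Tagln2, 3.04), the actin-binding scaffold Pdlim1 (3.00) and annexin A1 (Anxa1, 2.30). Vinculin (Vcl) and talin (Tln1), which link integrins to actin, differed by -0.07 and 0.30 and did not pass, although Tln1 did without SZ replicate 4.

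Adhesion and membrane genes differed in both directions within families. Of 26 integrins and adhesion receptors 17 read higher in SZ and 4 in IDZ. The collagen-binding integrin Itga2 read 8.30 to 8.93 in SZ and 6.15 to 6.70 in IDZ (2.23 higher in SZ), whereas the cartilage collagen receptor Itga10 read 8.79 to 9.20 and 9.47 to 9.81 (0.69 higher in IDZ, adjusted p = 0.001). Of 12 caveola and endocytosis genes 8 read higher in SZ, among them Cav2 (2.34), and 3 in IDZ, among them the muscle caveolin Cav3 (0.47, a call lost without SZ replicate 2 or 3 or IDZ replicate 1, 2 or 4). The second count was 1 without SZ replicate 2 or 3 or IDZ replicate 2 or 4. Of 31 ion channel genes 12 read higher in SZ and 5 in IDZ, with the water channel Aqp1 at 2.94, the gap junction gene Gja1 at 1.47 and the mechanosensitive channel Piezo1 at 0.84 toward SZ. Primary cilium genes gave 1 and 2 of 26, or 5 and 2 without SZ replicate 4 and 1 and 4 without SZ replicate 3, and the count in IDZ was 0 without SZ replicate 1 or IDZ replicate 1, 2 or 3 and 1 without IDZ replicate 4.

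**Figure D5:**
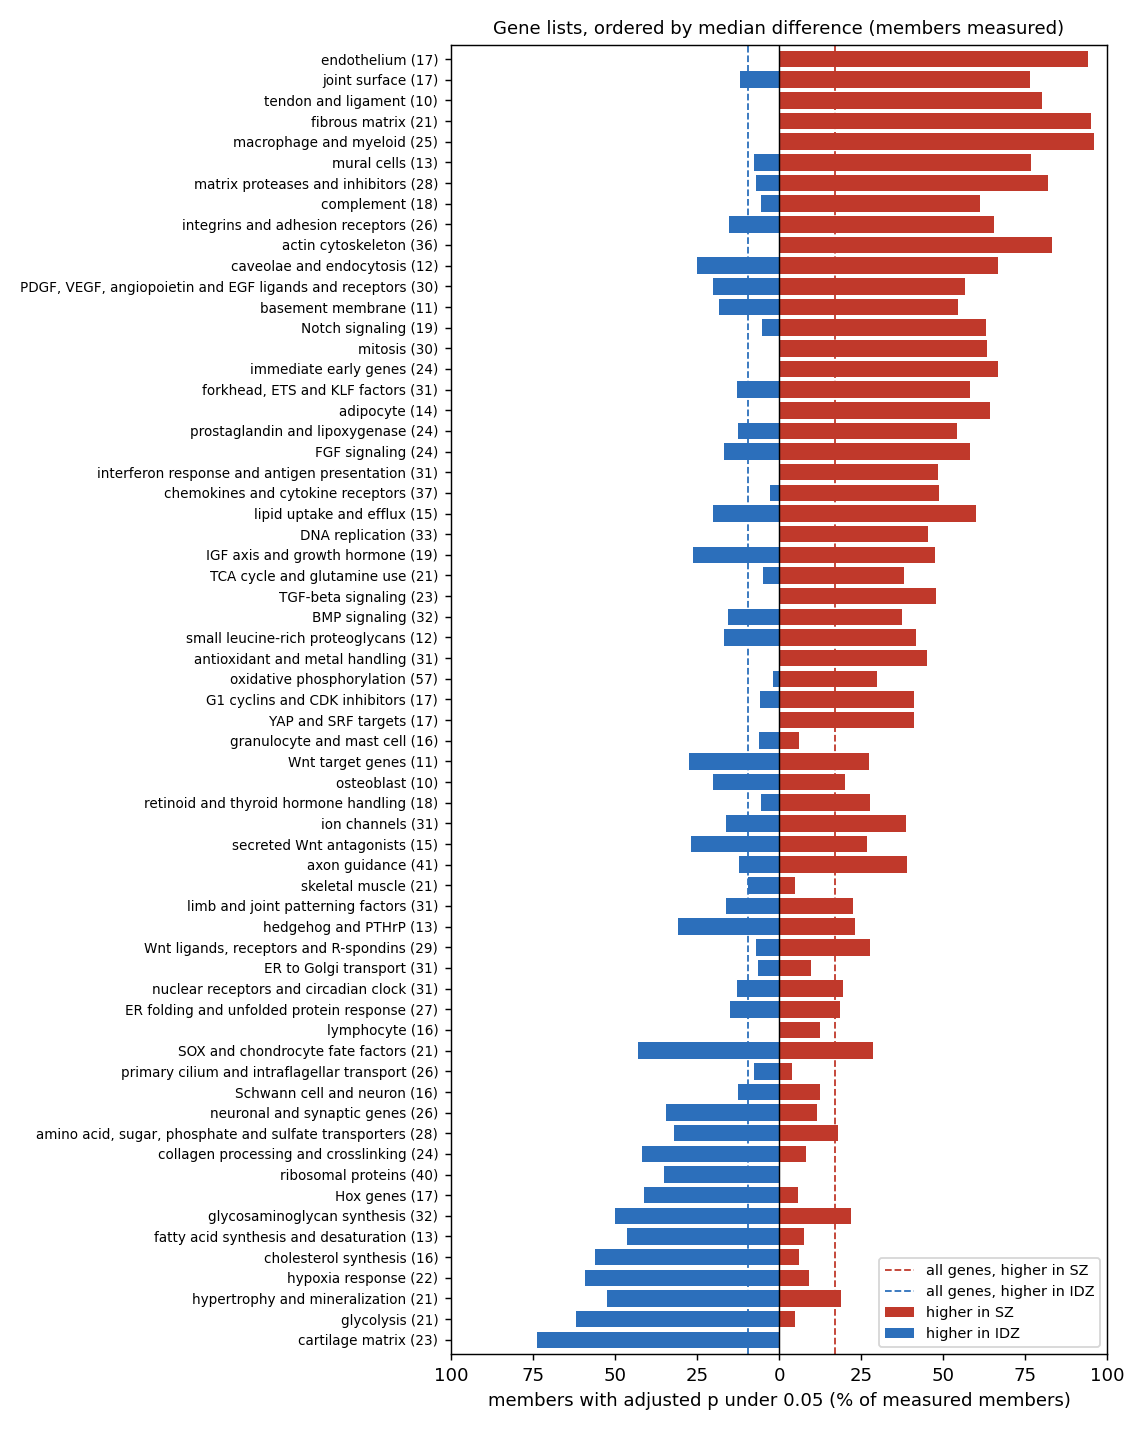
Share of measured members with an adjusted p under 0.05 (x axis, in percent, higher in SZ to the right in red and higher in IDZ to the left in blue) for gene lists with at least 10 measured members (y axis, number measured in brackets), ordered by median difference. Dashed lines mark the 17.0 and 9.56% of all genes, and the lists run from endothelium at the top to cartilage matrix at the bottom.

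Several growth factors and their receptors differed in opposite directions. Igf1 was higher in SZ, while its receptor Igf1r read 9.30, 9.78, 9.56 and 9.12 in SZ and 9.90 to 10.00 in IDZ and was higher in IDZ by 0.50 (standard error 0.12, adjusted p = 0.0085). The growth hormone receptor Ghr was also higher in IDZ, by 0.62. Of 19 genes of the axis 9 read higher in SZ and 5 in IDZ, and the 9 include 5 binding proteins, led by Igfbp5 (2.26). In the parathyroid hormone-related protein pathway, the receptor Pth1r read 8.58 to 9.08 in SZ, 10.50 to 10.62 in IDZ and 11.09 to 11.23 in RZ (1.72 higher in IDZ, standard error 0.10). Gnas, which encodes the stimulatory G protein subunit that this receptor uses, ran in the reverse order, at 11.62 to 11.93, 9.24 to 9.99 and 6.73 to 7.13 (2.15 higher in SZ). These values are those of its brightest cluster, and which transcripts of the gene that cluster reads was not tested. Gli2 was higher in IDZ by 1.02 and Gli1 differed by 0.15 (adjusted p = 0.37).

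Of the fibroblast growth factor pathway 14 of 24 genes read higher in SZ and 4 in IDZ. The receptor Fgfr3, which restrains chondrocyte growth, read 8.95, 9.19, 9.39 and 9.03 in SZ and 10.89, 10.98, 10.86 and 10.92 in IDZ (1.77 higher in IDZ, standard error 0.10). Fgfr1 differed by 0.20 (adjusted p = 0.14, past the threshold without SZ replicate 4). The feedback inhibitors Spry1 and Dusp6 differed by 2.06 and 1.61 toward SZ. The epidermal growth factor receptor Egfr read 8.88 to 10.00 in SZ and 6.43 to 7.28 in IDZ (2.62), and the heparin-binding factor midkine (Mdk) differed by 1.66. In the list of vascular and related factors, 17 of 30 read higher in SZ and 6 in IDZ. The latter include Angpt1, at 6.90 to 7.40 and 8.60 to 9.29 (1.80), while its receptor Tek, an endothelial gene, was higher in SZ by 2.45.

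Secreted inhibitors of Wnt and BMP signaling differed in both directions. Of 15 Wnt antagonists 4 read higher in SZ and 4 in IDZ, and the 4 of IDZ were Sfrp1, Sfrp5, Dkk1 and Frzb. These differed by 2.17, 1.83, 1.76 and 1.67, and toward SZ Dkk3 differed by 3.45 and Wif1 by 2.17. Sfrp5 read 8.50, 8.50, 8.53 and 8.56 in SZ, 9.91, 10.05, 10.56 and 10.86 in IDZ and 11.99 to 12.33 in RZ, and Wif1 read 10.10 to 10.72, 7.99 to 8.56 and 6.58 to 6.82. Both were graded over the 3 zones, in opposite orders. Among receptors and R-spondins, the Wnt amplifier Rspo3 read 7.44 to 8.13 in SZ and 10.31 to 10.48 in IDZ (2.67 higher in IDZ), whereas Lgr5, a receptor for R-spondins, read 7.04 to 7.94 and 5.43 to 6.00 (1.81 higher in SZ). The feedback target Axin2 differed by 0.18 and did not pass (adjusted p = 0.14).

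Of 32 BMP pathway genes 12 read higher in SZ and 5 in IDZ. The antagonists Nbl1 (2.82) and Chrdl1 (1.46) read higher in SZ, and Grem1 (2.34) and Nog (1.05) in IDZ. Grem1 read 7.71, 7.68, 8.46 and 7.19 in SZ and 9.97, 9.99, 10.22 and 10.24 in IDZ. The ligands Bmp4 and Bmp5 differed by 1.85 and 1.99 toward SZ, and the response genes Id3 and Smad6 by 0.84 and 0.79. For TGF-beta 11 of 23 genes read higher in SZ and none in IDZ, with Tgfb3 at 10.62 to 10.87 against 8.89 to 9.06 (1.80, standard error 0.09) and the latent binding protein Ltbp4 at 2.19. For Notch 12 of 19 read higher in SZ and 1 in IDZ, with Jag1 at 1.90, and with Notch3, a mural cell gene, at 2.77.

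Transcription factors differed by family. Of 24 immediate early genes 16 read higher in SZ and none in IDZ, with Egr1 at 10.71 to 11.14 against 8.53 to 9.07 (2.24, standard error 0.18) and Jun at 2.08. Such genes respond fast to many stimuli, the handling of tissue among them, and no array here separates these. Of 31 forkhead, ETS and KLF factors 18 read higher in SZ and 4 in IDZ, with Foxp1 (1.75) and Ets1 (1.72) among the former. The limb mesenchyme factors Prrx1, Prrx2 and Twist1 differed by 1.70, 1.55 and 1.39, and Prrx1 read 11.81 to 12.04 in SZ, 10.20 to 10.35 in IDZ and 8.58 to 8.90 in RZ. Creb5, a factor tied to lubricin expression, differed by 2.20.

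Higher in IDZ were the chondrocyte factors Sox5 (1.07), Sox6 (0.45, a call lost without SZ replicate 1 or IDZ replicate 2 or 4) and Sox8, which read 7.74 to 8.16 in SZ, 9.33 to 9.48 in IDZ and 10.37 to 10.75 in RZ (1.37). Of 21 genes in that list 9 read higher in IDZ and 6 in SZ, the latter count being 3 without SZ replicate 3 or IDZ replicate 1 or 2. Of 17 Hox genes 7 read higher in IDZ and 1 in SZ. Hoxa5 read 8.11, 8.36, 8.33 and 7.65 in SZ and 9.39, 9.62, 9.74 and 9.23 in IDZ (1.38), Hoxc5 differed by 1.38 and Hoxc9 by 1.16, while Hoxd9 was higher in SZ by 0.43, a call lost without SZ replicate 1, 2 or 3 or IDZ replicate 2, 3 or 4. Neighbouring Hox genes overlap in the genome, and their clusters may share transcripts. Of the nuclear receptors, the thyroid hormone receptor Thrb was higher in IDZ by 1.21, and Nr2f2, a factor of veins and mesenchyme, in SZ by 1.47.

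Cell cycle genes that passed lay mainly toward SZ. Of 30 mitosis genes 19 read higher in SZ and none in IDZ (median 0.57), and of 33 replication genes 15, or 27 and 25 without SZ replicate 4. The mitotic list averaged 7.67, 8.06, 7.88 and 7.24 on SZ replicates 1 to 4 and 7.10 to 7.17 on IDZ arrays. It was 7.74 to 7.96 in RZ, so that IDZ was the lowest zone. The checkpoint kinase Bub1 read 8.03, 8.20, 8.24 and 7.12 in SZ and 6.62 to 7.11 in IDZ, where SZ replicate 4 lay just above the IDZ range (difference 0.98, and 1.24 without that array). The cell cycle inhibitor Cdkn1c was graded over the zones, at 9.01 to 9.29 in SZ, 9.75 to 9.95 in IDZ and 10.71 to 10.82 in RZ (0.73 higher in IDZ, standard error 0.09).

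Immune and inflammatory genes that passed lay mainly toward SZ. Of 18 complement genes 11 read higher in SZ and 1 in IDZ (2 without SZ replicate 4), led by the complement shield Cd55, which read 10.23, 9.60, 8.89 and 9.20 in SZ and 5.50, 5.70, 6.82 and 5.71 in IDZ (3.55, standard error 0.32). Of 31 interferon and antigen presentation genes 15 read higher in SZ and none in IDZ (2 without SZ replicate 4), with B2m at 11.91 to 12.09 and 10.04 to 10.21 (1.87) and Cd74, a partner of class II molecules, at 2.41. Of 37 chemokine and cytokine receptor genes 18 read higher in SZ, led by Ccl2 (2.99), and 1 in IDZ (4 without SZ replicate 4). That gene was Cxcl14, at 8.64, 8.84, 9.11 and 8.72 in SZ, 10.25 to 10.46 in IDZ and 8.57 to 8.91 in RZ (1.52). Of 24 prostaglandin and lipoxygenase genes 13 read higher in SZ and 3 in IDZ. The macrophage list means given above differed between the zones in the same direction, and the share of immune cells in these genes was not tested.

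Of 26 genes known from neurons and synapses 9 read higher in IDZ and 3 in SZ, or 11 and 5 without SZ replicate 4. The adhesion molecule Cntn1 read 6.94, 7.20, 7.35 and 6.57 in SZ, 9.59, 9.60, 9.18 and 9.61 in IDZ and 10.76 to 10.94 in RZ (2.48 higher in IDZ, standard error 0.15). Also higher in IDZ were the netrin receptor Unc5c (2.23), the leucine-rich repeat gene Lrrn3 (2.08) and the glutamate transporter Slc1a1 (1.35). The neurofilament gene Nefl differed by -0.02 and Sox10, a Schwann cell factor, by -0.24. Neither passed with all arrays, although Sox10 did without SZ replicate 4. Lgi1 alone of the group was over 8-fold higher in SZ, at 8.20, 8.52, 7.90 and 6.50 against 4.49 to 4.79.

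Spread within the zones had its own leading genes. Among genes with a mean level of at least 7 in SZ, the standard deviation was largest for Ahsp, a globin chaperone of red cells, at 8.28, 9.08, 8.83 and 5.21, followed by the granulocyte gene Ngp, at 7.42, 9.03, 6.99 and 5.40, and the macrophage gene Adgre1, at 6.68, 9.16, 8.15 and 6.48. In each, SZ replicate 2 was highest and replicate 4 lowest, as they were for the red cell genes Alas2 and Slc4a1 and the fat gene Fabp4. Fancd2osl1 was the exception, at 8.55, 8.03, 8.00 and 10.58. Over all clusters, SZ replicate 2 also had the widest interquartile range of the SZ arrays (2.91) and replicate 4 the narrowest (2.24). The part of this in the order of these genes was not tested. In IDZ, by the same rule, the leading genes after Fam111a were Prg4, Ahsp (7.05, 7.13, 8.55 and 8.88) and Tbx5. IDZ replicate 4 had the lowest Prg4 and the highest Ahsp.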

How the data were processed

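Total RNA from dissected zones was hybridised to Affymetrix Rat Gene ST arrays. The authors produced the log2 values as deposited in Partek Genomics Suite 6.6 with robust multi-array averaging (background correction, quantile normalization, median polish). After such normalization a difference is relative to the bulk of the clusters. The deposited arrays still differed in the width of their distributions. The interquartile range was 2.24 on SZ replicate 4, 2.72 to 2.91 on the other SZ arrays and 2.5 to 2.59 on IDZ arrays. When quantile normalization was repeated, the any-fold count rose from 2430 to 2641 genes for SZ and from 1367 to 1897 for IDZ.

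Of 27342 transcript clusters, 15068 had 1 gene symbol, 323 several and 11951 none in the platform annotation, and symbols were matched to RefSeq by gene ID for 15039. The brightest cluster was taken for each of 14300 genes, 495 of which had more than 1. Limma 3.58.1 (R 4.3.3) fitted 1 mean per zone over all 12 arrays, with Benjamini-Hochberg adjustment over all clusters. Calls used an adjusted p under 0.05, with at least 2-fold for counts of genes. No gene-level result left an array out unless stated. Data were also simulated with the mean of each cluster and 1 spread per cluster, the same on all arrays. Of 27342 clusters, 50 were shifted at each of 1.5, 2, 3 and 4-fold. Of clusters shifted 2-fold 47 of 50 were recovered, and of those shifted 1.5-fold 32 of 50. Among unshifted clusters 6 passed. A far smaller share was shifted than the 26.6% of genes that passed in the real data, and the adjusted p depends on that share. The wider spread of SZ and its distant replicate 4 were not simulated either, so the shares recovered need not hold for the real arrays.

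The members and the 67 gene lists were chosen with earlier results of these data known. Named genes were the 20 largest differences per direction, up to 6 called and 3 uncalled members per list, the dissection guides, Tnmd with Cnmd, the proteoglycans Kera, Epyc and Aspn, and the 8 genes of largest spread per zone with a mean of at least 7. A further 36 were named for their role after their values were seen. SZ samples were separate animals and IDZ samples separate pools of 2, and 4 arrays per zone limit the precision. The p-values rest on 1 spread per cluster, pooled over SZ, IDZ and RZ arrays and moderated over clusters, although SZ arrays varied more. They treat arrays that shared animals as independent. By the labels, SZ replicates 1 and 2 came from animals pooled in IDZ replicate 3, and SZ replicates 3 and 4 from those in IDZ replicate 4, so that replicate numbers match animals only for replicate 4. Correlations of deviations from the zone means were -0.273 to 0.159 for arrays of the same number and -0.273 to 0.275 for arrays that shared animals, and the zones were compared without a block.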

Additional observations from a re-analysis of the deposited data

Results flagged for a closer look

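In 19 of 242 groups of 4 arrays (54 named genes and 67 list means in each zone), 1 array lay far from the other 3 by Dixon's criterion for 4 values. Chance gives this in about 1 group in 20 where groups are independent and unselected. Here genes were picked by their spread or difference, and all groups of a zone share the same arrays. Whether 19 is more than chance gives therefore cannot be judged. In SZ, replicate 4 was the distant array for Adgrf5 (8.64), for Car12 (7.06) and for the mean of the joint surface (9.63), collagen processing (10.33) and oxidative phosphorylation (9.08) lists. SZ replicate 1 was highest for Rgs5 (12.01), and SZ replicate 2 for Tbx5 (7.11). In IDZ, replicate 4 was distant for Prg4 (8.86) and for the mean of the joint surface (8.13), glycosaminoglycan synthesis (9.41), oxidative phosphorylation (9.36), citric acid cycle (8.92) and complement (6.61) lists. IDZ replicate 1 was distant for Mug1l1 (8.59), the BMP signaling list (7.92) and the Wnt target list (7.55), IDZ replicate 2 for the prostaglandin list (6.86), and IDZ replicate 3 for Cd55 (6.82) and Cntn1 (9.18).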

How the results depend on the processing

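No called difference of a named gene changed sign under any alternative run. The counts at 2-fold moved little with the scaling of the arrays, from 591 to 671 genes in SZ and 143 to 171 in IDZ. At any fold, as used for the lists, scaling moved them more, from 2290 to 2641 in SZ and 1109 to 1897 in IDZ. Leaving out 1 array at a time gave 583 to 784 and 139 to 166 at 2-fold, and 2049 to 3713 and 1036 to 2721 at any fold, the highest any-fold counts being those without SZ replicate 4. Array weights, which gave that array little weight, raised the any-fold IDZ count to 2401. Testing against 2-fold itself (treat) left 277 and 49 genes, and a minimum of 1.5-fold gave 1407 and 498. With a fixed replicate block by number the 2-fold counts were 653 and 145, and the any-fold IDZ count was 827. With a random replicate block by animal pair they were 653 and 154. With the arrays of animals 5 to 8 alone and a fixed replicate block, 935 and 277 genes passed at any fold from fewer arrays. Fitting the SZ and IDZ arrays without RZ gave 2069 and 1018 at any fold. Among 380 named genes that passed, 10 did not with the SZ and IDZ arrays fitted alone, 93 with animals 5 to 8 alone and 233 against 2-fold. Of 134 list counts, 27 moved by over 1.5 times without SZ replicate 4, counts of 0 to 2 genes included, and 70 with animals 5 to 8 alone. Changes in the scaling of the arrays moved 8 to 16 of them. The causes were not tested. The spread of SZ replicate 4 and 4 arrays per zone limit what small differences could be called, and dim clusters were retained unless tested without.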

Other observations

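Further gene groups not described above were measured in the same fit. Of 41 axon guidance genes 16 passed toward SZ and 5 toward IDZ, the latter 8 without SZ replicate 4 and 3 without IDZ replicate 2, 3 or 4. Of 18 genes of retinoid and thyroid hormone handling 5 passed toward SZ and 1 toward IDZ, among the former the retinoic acid-binding proteins Crabp1 (1.64) and Crabp2 (1.92). Of 28 transporters of amino acids, sugars, phosphate and sulfate 9 passed toward IDZ and 5 toward SZ, the latter 10 without SZ replicate 4 and 3 without SZ replicate 2 or 3 or IDZ replicate 2 or 4. Of 17 YAP and SRF targets 7 passed toward SZ and none toward IDZ, with a median difference of 0.13.

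Of 17 joint surface genes 13 passed toward SZ and 2 toward IDZ (1 when any array but SZ replicate 3 was left out), among the former the hyaluronan receptor Cd44 (2.27) and the transcription factor Creb5 (2.20), while Itgbl1 (0.09) and Sfrp2 (0.37) did not pass. Of 21 hypertrophy and mineralization genes 11 passed toward IDZ and 4 toward SZ, among the former the lipoxygenase Alox12 (1.62) and the sphingomyelin synthase Sgms2 (1.61) and among the latter the pyrophosphate exporter Ankh (1.65). Of 11 basement membrane genes 6 passed toward SZ, with Col4a1 at 2.02, and 2 toward IDZ, with Nid2 at 1.10. Of 29 Wnt ligands and receptors 8 passed toward SZ, with Fzd4 at 2.58, and 2 toward IDZ (4 without SZ replicate 4). Of 17 cyclins of G1 and inhibitors 7 passed toward SZ and 1 toward IDZ (9 and 2 without SZ replicate 4). Of 31 limb and joint factors the counts were 7 and 5 (10 and 8 without SZ replicate 4), of 31 nuclear receptor and clock genes 6 and 4 (10 and 5), of 31 genes of transport from the endoplasmic reticulum to the Golgi 3 and 2 (8 and 2, and 0 or 1 toward SZ without SZ replicate 1, 2 or 3 or IDZ replicate 1, 2 or 3), of 11 Wnt targets 3 and 3, of 13 hedgehog and PTHrP genes 3 and 4, and of 6 lymphatic genes 2 and 1.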
